A study of Drosophila melanogaster with 4 samples.

Results

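The narrow H4K16ac regions of the X chromosome are the short end of the mark's distribution on a chromosome where it forms broad domains. They were chosen from the combined list of enriched regions deposited for the series as X regions under 3 kb wide that shared at least 1 base with a region called in either ChIP replicate. In all, 512 of the 6550 regions of the combined list met these terms. They were 512 of the 2204 combined regions on X and 512 of the 1550 combined X regions under 3 kb (33.0%), where 40.9% of combined regions under 3 kb on all sequences had such support. The samples were 2 ChIP replicates made with an antibody labelled H4K16ac(M) and 2 inputs (chromatin DNA sequenced without immunoprecipitation) from whole embryos of Drosophila melanogaster aged 14 to 16 h, of the wild-type strain Oregon-R, with no treatment named. Embryos of both replicates were fixed with formaldehyde, and the labels give neither their sex nor whether the replicates came from separate collections. The files hold called regions and no read counts, so the depth of each library is unknown. Enriched regions of a whole embryo sum over all its cell types, so a mark in few cells and a weak mark in many cells cannot be told apart. Width, chromosome and replicate overlap chose the regions, so these values and the scores of the same calls are given as a description, with no test.

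Acetylation of histone H4 on lysine 16 loosens the packing of nucleosomes and marks active chromatin. In male flies the MSL complex, which carries the acetyltransferase MOF and the noncoding roX RNAs, binds entry sites on X and spreads from them into active genes, where it lays down broad acetylation as part of dosage compensation. MOF also works in the NSL complex at promoters on all chromosomes and in both sexes, where the mark is usually narrower. Coordinates in the files are in FlyBase release 5. Genes and DNA sequence at the regions were not analysed here, since annotation and genome of that release were not used.

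The 512 regions were short and made up few of the enriched bases. Their widths ranged from 1001 to 2999 bp with a median of 1944 bp. Together they covered 999.3 kb, which was 4.46% of X and 9.99% of the bases that the combined list covered there. The 261 X regions of 10 kb or wider, called domains here, held 54.6% of those bases. The authors' score per region has no stated unit and was used only to rank regions and to compare medians within a list. The median score in the combined list was 0.532 (quartiles 0.482 and 0.579) for the narrow supported regions. It was 0.659 for the 393 X regions of 3 to 10 kb and 0.968 for the domains. The 1038 narrow X regions without replicate support had a close median of 0.525 (quartiles 0.479 and 0.574). The lower quartile of the domains, 0.863, lay above the upper quartile of the narrow regions.

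Support came mostly from a single replicate. Replicate 1 overlapped 420 of the 512 regions (82.0%) and replicate 2 overlapped 161 (31.4%). Regions found in replicate 1 alone numbered 351, those found in replicate 2 alone 92, and 69 were found in both (13.5%, 95% Wilson interval 10.8 to 16.7, which like all such intervals here covers counting error over regions only). Among all narrow supported regions on any sequence, the like base, 23.5% overlapped both replicates. In the combined list as a whole, which includes unsupported regions, 19.3% did. On that wider base the narrow X count was 69 of 1550. By comparison, 68.4% of the 393 X regions of 3 to 10 kb and all 261 domains were found in both. Of these, 95.7% and 100% had support from either replicate. Wider regions also have more room to overlap. The narrow regions found in both replicates were the wider and higher scored ones. Their median width was 2351 bp and their lowest 1847 bp, against medians of 1895 bp and 1769 bp for those of replicate 1 alone and of replicate 2 alone. Their median combined score was 0.623, against 0.528 and 0.518. The replicate lists hold no region under 1301 bp, whereas the combined list starts at 1001 bp.

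Where a replicate supported a narrow region it usually did so over most of its length. In replicate 1 the median share of the region's bases inside a called region was 85.9%, and 396 of 420 were covered for at least 50% of their length. In replicate 2 the median was 79.4%, with 153 of 161 covered for at least 50%. The supporting regions themselves were short, with median widths of 1623 bp in replicate 1 and 1575 bp in replicate 2. The supporting region reached into a neighbouring combined region for 30 of 420 regions in replicate 1 and for 10 of 161 in replicate 2. Scores of the supporting regions stood near the middle of their lists, at a median percentile of 56.9 in replicate 1 and 52.0 in replicate 2. Across the 69 regions found in both replicates, Spearman's rho of the replicate scores was 0.411 and Pearson's r was 0.369. These points share both libraries, and the regions are not independent replicates.

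**Figure D1:**
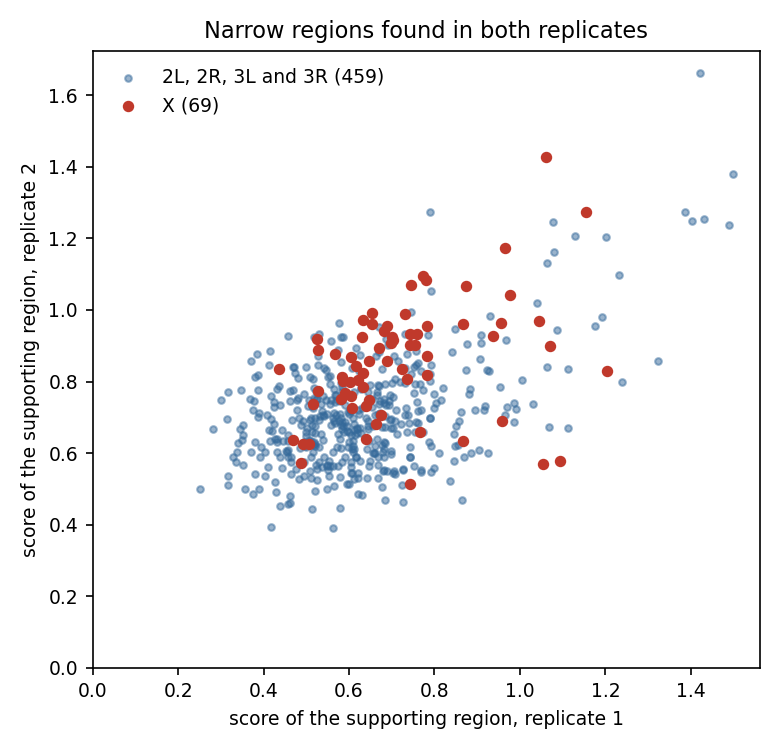
Each point is a narrow supported region found in both replicates, with the authors' score of the overlapping region in replicate 1 (horizontal) and replicate 2 (vertical), both without a stated unit. The 69 X regions (red) lie mainly inside the cloud of the 459 autosomal regions (blue), towards its upper side in replicate 2.

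Whether the narrow regions flank the wide acetylated domains or stand apart was asked next. A gap of at most 5 kb to a domain was found for 125 regions (24.4%, 95% Wilson interval 20.9 to 28.3), which are called flanking. A further 186 (36.3%, 32.3 to 40.6) had no combined region of 3 kb or wider within 10 kb and are said to stand alone. The remaining 201 (39.3%) lay between these cases, with a region of 3 to 10 kb within 10 kb or with the nearest domain 5 to 10 kb away. The order of the groups is set by these limits. With a gap of at most 10 kb 37.1% were flanking, and with domains of 3 kb or wider 49.2%. With domains made by joining regions less than 1 kb apart the share was 44.9%. That share counts as flanking the 131 regions (25.6%) that themselves became part of such a domain. Asking for no region of 3 kb or wider within 20 kb left 20.3% standing alone. Among all 1550 narrow X regions of the combined list, 17.7% were flanking and 43.5% stood alone. Of the regions supported by replicate 1, 24.8% were flanking and 35.5% stood alone, and of those supported by replicate 2, 26.1% and 35.4%. These subsets share 69 regions and the same domains, so their closeness is no independent support.

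The median gap to the nearest domain was 18.0 kb, and it ranged from 17 bp to 444.1 kb. Gaps of at most 1 kb were found for 48 regions (9.38%), and 98 regions (19.1%) lay more than 50 kb from any domain. A domain within 5 kb on each side was seen for 9 regions (1.76%). For the 1038 narrow X regions without replicate support these shares were 6.17%, 25.6% and 1.16%, and the median gap was 23.2 kb. From the side of the domains, 107 of 261 (41.0%) had a narrow supported region within 5 kb, and no domain had more than 4. Any narrow combined region, supported or not, lay within 5 kb of 164 domains (62.8%).

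Flanking regions took a larger share of the narrow regions than the sequence next to domains took of X. Of the X bases outside domains, 11.5% lay within 5 kb of a domain, against 21.1% of the midpoints of the narrow supported regions. The narrow X regions without replicate support were nearer to the average base, with 13.2% of 1038 midpoints within 5 kb. Measured from region edges, 14.5% of the unsupported regions were flanking. Supported regions were wider than unsupported ones (median 1944 against 1268 bp), so both were also compared in bins of 250 bp of width. The flanking share was then 7.77 percentage points higher in supported regions, and higher in 6 of 8 bins. The share that stood alone, 36.3% against 47.0% before binning, was -2.11 percentage points different (supported minus unsupported) at equal width and went in both directions, being higher in supported regions in 4 of 8 bins. Base and region shares carry no test, since regions along a chromosome are not replicates.

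**Figure D2:**
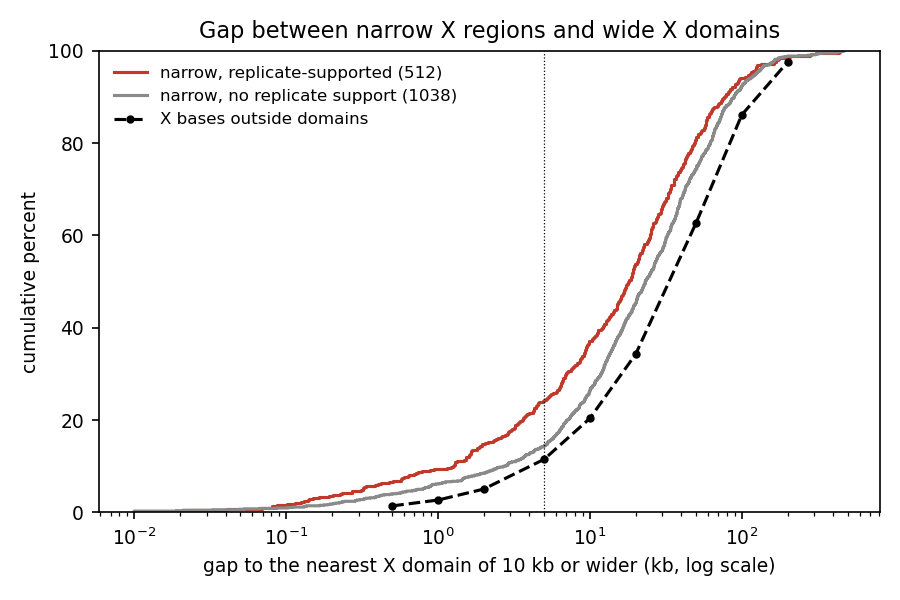
Cumulative percent (vertical) of 512 supported and 1038 unsupported narrow X regions, and of X bases outside domains, by the gap to the nearest X domain of 10 kb or wider in kb (horizontal, log scale; dotted line at 5 kb). Supported regions run above unsupported ones and both above the average base, with 24.4% and 14.5% of the regions and 11.5% of the bases within 5 kb.

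The replicate lists, each with its own domains, gave different flanking shares, each above its share of bases. In replicate 1, 140 of 772 X regions under 3 kb (18.1%) lay within 5 kb of one of its 194 domains, with 16.1% of midpoints against 8.17% of bases. In replicate 2, 68 of 712 (9.55%) lay that near one of its 85 domains, with 8.15% of midpoints against 3.50% of bases. The absolute shares were lower where the list held fewer domains. The share with no region of 3 kb or wider within 10 kb was 34.2% in replicate 1 and 33.0% in replicate 2. Of X bases outside regions of 3 kb or wider in these lists, 69.3% and 72.1% lay more than 10 kb from one.

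**Figure D3:**
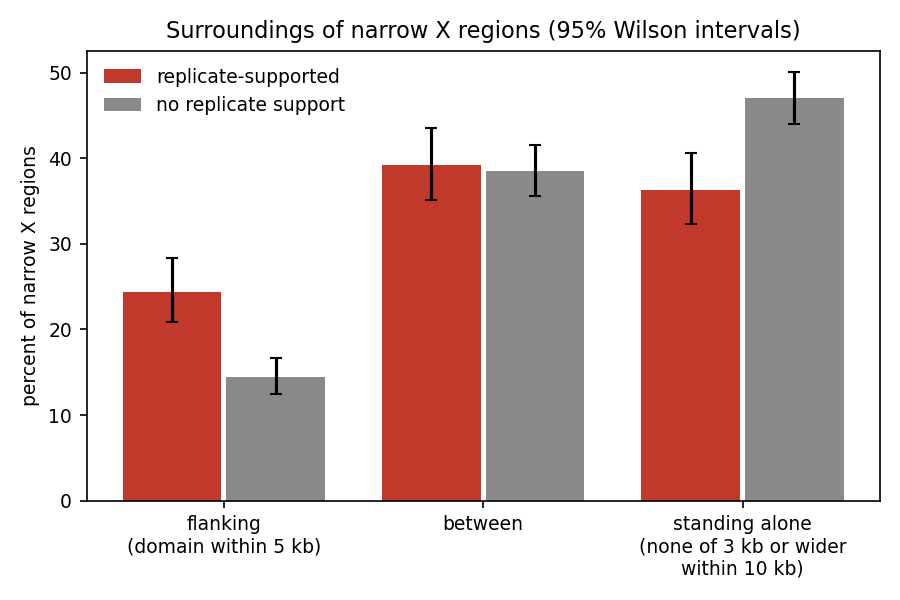
Percent of narrow X regions (vertical) that flank a domain, lie between, or stand alone, for regions with and without replicate support; bars are shares and error bars are 95% Wilson intervals over regions. Supported regions are flanking in 24.4% and alone in 36.3% of cases, unsupported ones in 14.5% and 47.0%, before widths are made equal.

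Regions that stood alone had a lower median width than flanking ones and a close median score. The median width was 1783 bp for regions standing alone, 1971 bp for those between and 2051 bp for flanking ones. Median combined scores were 0.528, 0.537 and 0.530, a span well inside the quartiles of each class. Medians of the supporting scores in replicate 1 were 0.653 for regions standing alone and 0.681 for flanking ones, and in replicate 2 they were 0.825 and 0.834. Both replicates called 20 of 186 regions standing alone (10.8%, 7.07 to 16.0), 28 of 201 between (13.9%, 9.82 to 19.4) and 21 of 125 flanking (16.8%, 11.3 to 24.3), and these intervals overlap. Flanking regions scored below their domains. All but 1 of the 125 scored below the nearest domain, with a median difference of -0.43. The lower quartile of all domains, 0.863, lay above the upper quartile of flanking regions, 0.573. The count therefore says little about the nearest domain in particular. Across them Spearman's rho between the score of the region and that of the domain was 0.05 and Pearson's r was 0.04, as a description over 125 regions that share the combined list.

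Standing alone rarely meant isolation. The gap to the nearest combined region of any width had a median of 0.821 kb over all 512 regions, and 280 of them (54.7%) had a neighbour within 1 kb. Regions standing alone had a median gap of 2.23 kb to the nearest neighbour of any width, and 26 of the 186 had none within 10 kb. Neighbours and links here include the 1038 narrow X regions without replicate support, of which 43.3% had a neighbour within 1 kb. When combined X regions with gaps of at most 5 kb were linked into chains, 284 narrow supported regions (55.5%) fell in a chain that held a domain. Another 76 were in a chain with a region of 3 to 10 kb but no domain, 89 in a chain of narrow regions alone, and 63 (12.3%) had no partner. Counted once per narrow supported region, the median number of regions in its chain was 8, which gives long chains more weight. The 2204 combined X regions formed 593 chains. Chain shares over all narrow X regions were not computed. Joining combined regions less than 1 kb apart would place 271 of the 512 (52.9%) in a region of 3 kb or wider and 131 (25.6%) in one of 10 kb or wider. For the 1693 narrow supported autosomal regions these shares were 23.8% and 1.24%.

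Comparable autosomal regions came from 2L, 2R, 3L and 3R, where 1693 of 3724 combined regions under 3 kb had replicate support, with a median width of 1977 bp. Wider neighbours were rarer there, since the combined list held 296 regions of 3 kb or wider on these arms and 0 of 10 kb or wider. Of the 1693 regions, 84.7% stood alone by the same measure, against 36.3% on X, and the share was lower on X in each of 8 width bins. It ran from 16.7% to 59.6% in the X bins and from 79.3% to 90.2% in the autosomal ones. The sequence around differed in the same direction. Of bases outside regions of 3 kb or wider, 66.7% of those on X and 94.4% of the autosomal ones lay more than 10 kb from one. Neighbours of any width were also farther on the autosomal arms, at a median of 2.84 kb, with 24.8% of regions having one within 1 kb. In the replicate lists the shares of narrow autosomal regions that stood alone were 92.6% and 98.6%. Those lists held few wider autosomal regions, since 1779 of 1908 in replicate 1 and 844 of 860 in replicate 2 were under 3 kb. High shares were thus nearly fixed in advance there.

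At equal width, X regions scored higher. Median combined scores were 0.532 for X and 0.452 for autosomal regions, and the difference within bins of 250 bp, weighted by the number of X regions, was 0.079. X was higher in 8 of 8 bins, from 0.04 (2500 to 2749 bp) to 0.10 (1500 to 1749 bp). The supporting regions of the replicates went the same way, though they come from the same libraries and are no independent support. Their scores differed by 0.115 in replicate 1 and 0.167 in replicate 2 at equal width of the combined region. Over all regions under 3 kb in the replicate lists themselves, the difference at equal width was 0.119 in replicate 1 and 0.150 in replicate 2. X was higher in 7 of 7 bins of each list. The lowest called score among these regions was higher for X too. It was 0.410 against 0.212 for autosomal regions in replicate 1, and 0.514 against 0.358 in replicate 2. The differences thus hold among called regions only, and the part of these unequal lowest scores in them was not tested. The quartiles of X and autosomal regions overlapped in part. Between quartiles the combined score ran from 0.482 to 0.579 for X and from 0.389 to 0.522 for autosomal regions. The highest score of a narrow supported region was autosomal, at 1.46, against 1.18 on X.

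**Figure D4:**
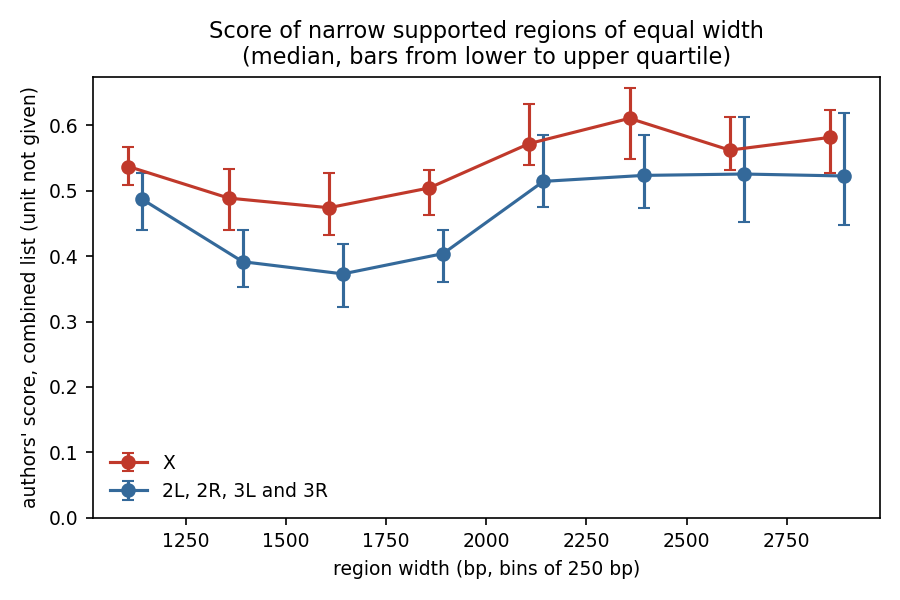
Median score in the combined list (vertical, the authors' unit) of narrow supported X (red) and autosomal (blue) regions by width in bins of 250 bp (horizontal); bars run from the lower to the upper quartile. The X median lies above the autosomal one in 8 of 8 bins, and the weighted difference is 0.079.

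A smaller share of narrow X regions than of autosomal regions of equal width was called in both replicates. Both replicates held 69 of the 512 X regions (13.5%) and 459 of the 1693 autosomal ones (27.1%, 25.05 to 29.3), where 23.5% of all narrow supported regions were in both. The share was 23.6% on 2L, 26.5% on 2R, 29.7% on 3L and 28.1% on 3R, so each autosomal arm stood above X. At equal width the weighted difference was -10.9 percentage points. In no bin was the share higher on X, and in the bin of 1000 to 1249 bp it was 0% on both. In the bin of 2000 to 2249 bp it was 25.9% of 81 X regions and 51.9% of 345 autosomal regions. Below 1750 bp it was 0% in each X bin, and at most 1.88% in the autosomal ones. Of the narrow regions that replicate 2 supported, 42.9% of the X ones and 75.0% of the autosomal ones were also in replicate 1. Of those that replicate 1 supported, 16.4% and 29.8% were also in replicate 2.

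**Figure D5:**
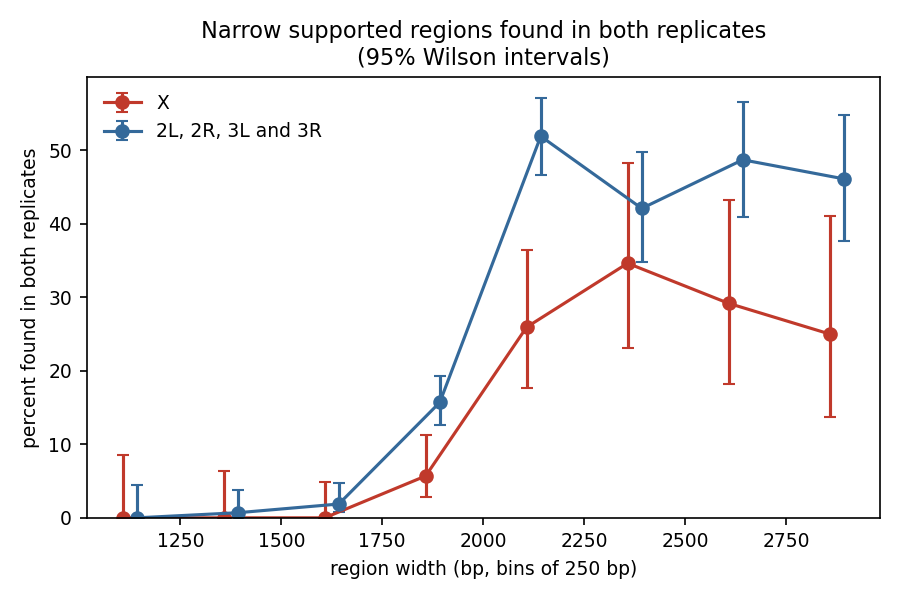
Percent of narrow supported regions found in both replicates (vertical) by width in bins of 250 bp (horizontal), on X (red) and the autosomal arms (blue); error bars are 95% Wilson intervals over regions. In the bin of 2000 to 2249 bp the share is 25.9% for X and 51.9% for autosomal regions, and no bin is higher on X.

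Support by either replicate was also less frequent on X, at 33.0% of 1550 narrow combined regions (30.7 to 35.4) against 45.5% of 3724 (43.9 to 47.1). This share is part of the choice of regions and is given as a description. At equal width the difference, X minus autosomal, was -8.19 percentage points. It was about level at 1000 to 1249 bp (7.52% and 7.10%) and farthest apart at 2250 to 2499 bp (61.9% and 91.1%).

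Many narrow X regions of the replicate lists fell within or touched wider regions of the combined list. Of 772 X regions under 3 kb in replicate 1, 46.9% touched a combined region of 3 kb or wider, and 51.4% touched a narrow combined region alone. Of 712 in replicate 2, 75.3% touched a combined region of 3 kb or wider and 21.6% a narrow one alone. On the autosomal arms these shares were 11.7% and 86.1% of 1779 regions in replicate 1, and 22.2% and 72.0% of 844 in replicate 2. The part of these differences in the lower share of narrow X regions found in both replicates was not tested.

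Per Mb of arm, narrow supported regions were somewhat denser on X. There were 22.8 per Mb of X and 17.5 per Mb of autosomal arm, a ratio of 1.30. All narrow combined regions, supported or not, numbered 1550 on 22.4 Mb of X and 3724 on 96.6 Mb of autosomal arm. Since a smaller share of them was supported on X (33.0% against 45.5%), their density ratio was above 1.30. Greater density on X was thus no trait of the supported regions alone. Counted by replicate 1 the densities of supported regions were 18.7 and 15.9, and by replicate 2 they were 7.18 and 6.33. X did not exceed every arm, since 2R had 19.1 per Mb by replicate 1 and 7.38 by replicate 2. For regions found in both replicates X was the sparser, at 3.08 per Mb against 4.75. Outside regions of 3 kb or wider, which take more of X, the densities were 34.4 and 17.7 per Mb.

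Along X the regions were spread over every 1-Mb window. The 22 full windows held from 11 to 41 narrow supported regions, with a median of 23.5. The window from 13 to 14 Mb held the most, 41, of which 11 were flanking, 13 stood alone and 7 were in both replicates. The fewest, 11 each, lay in the windows from 4 to 5 Mb and from 21 to 22 Mb, where 7 of the 11 stood alone in each. The number per window showed little relation to the percent of the window inside domains. Spearman's rho was 0.17 and Pearson's r 0.23, over 22 windows of a single list. Windows with more domain sequence also had less room for narrow regions, which was not adjusted for.

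The 5 highest scored regions were all found in both replicates. None of the 5 flanked a domain, but the next by score, from 6442634 to 6444976 (0.978, in both replicates), which was looked up after the values were seen, lay 1597 bp from one. The highest, X from 12635380 to 12637652 (2273 bp), scored 1.18 in the combined list, 1.16 in replicate 1 and 1.27 in replicate 2. It stood alone, 23.6 kb from the nearest domain and 13.6 kb from any region of 3 kb or wider. The next, from 17911808 to 17914034, scored 1.16 in the combined list, 1.06 in replicate 1 and 1.43 in replicate 2, with a region of 3 kb or wider 0.949 kb away. Both ranked at percentile 91.8 or above in each replicate list. The region from 3184226 to 3186472 scored 1.01 and lay 115.7 kb from the nearest region of 3 kb or wider, with a narrow neighbour 0.371 kb away. The region from 6761112 to 6763438 ranked at percentile 97.1 in replicate 1 and 45.2 in replicate 2. The fifth, from 1856010 to 1858744, ranked at 87.8 and 90.7.

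The 5 most isolated regions were each supported by a single replicate, as were 443 of all 512 (86.5%). The farthest from any other combined X region, from 6350280 to 6351826, had a gap of 64.9 kb and was in replicate 1 alone, at percentile 80.5 of its scores. Those from 2676168 to 2678718 (41.7 kb) and from 235986 to 238066 (34.3 kb) were in replicate 2 alone, at percentiles 56.0 and 64.5. The region from 9622706 to 9624582 (33.6 kb) had a combined score of 0.220, the lowest of all 512, yet lay whole inside a region of replicate 1. The fifth, from 18943784 to 18944788, had a gap of 21.2 kb and was 1005 bp wide, inside a region of 1625 bp in replicate 1.

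The edges of the 5 widest domains differed in their company. The widest domain, from 15597650 to 15697970 (100.3 kb), had 3 narrow supported regions on its right side within 5 kb. The nearest of these, from 15698476 to 15700678, began after a gap of 505 bp and scored 0.571 against 1.11 for the domain. The third, from 15702858 to 15705594, was in both replicates. It lay 4887 bp from this domain and 4263 bp from another. The second widest domain, from 11712414 to 11783502 (71.1 kb), had 1 such region, only 17 bp from its left edge and called in replicate 2 alone. The third, from 9107296 to 9177420 (70.1 kb), had 0. The fourth, from 20060132 to 20114074 (53.9 kb), had 1, at 3333 bp. The fifth, from 2580904 to 2634428 (53.5 kb), had 2 on its left side, at 81 and 4395 bp. The farther of them was in both replicates and lay only 327 bp from another domain.

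The width limit did not fall at a break in the values. The 3 widest regions inside it measured 2999, 2995 and 2981 bp, scored 0.534, 0.599 and 0.477 and were supported by replicate 1 alone. The 3 narrowest supported X regions outside it measured 3003, 3013 and 3035 bp and scored 0.514, 0.565 and 0.646. Of these, the first was in replicate 1 alone, the second in replicate 2 alone and the third in both.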

How the data were processed

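Enriched regions were analysed as deposited for 2 ChIP replicates and as a combined list for the series. Each replicate had its like-numbered input as control, per the labels. The submitters' processing notes name Bowtie 0.12.7, and coordinates are in FlyBase release 5 per the file headers, printed counting from 1. Not given in the sources used here are the region caller, its threshold and the making of the combined list. Each region has 1 score in the deposited files, without a stated unit. The files hold no read counts, so depth is unknown. Overlaps, gaps, width bins and shares were computed with Python 3.11.15, numpy 2.4.6 and pandas 2.3.3, and Wilson intervals with scipy 1.17.1. Gaps and overlaps were tested on simulated regions. Binned differences were weighted by the number of X regions (or of supported regions). With 2 replicates an exact test across samples is too coarse to pass a usual threshold, so values of both are given and none was made, nor any across regions. The regions and comparisons were chosen with earlier results of these data known. Named are the 5 highest scored and the 5 most isolated regions, those within 5 kb of the 5 widest domains, the 3 nearest to the width limit on each side, and the fullest and emptiest windows. Alternatives were the left-out replicates and other overlaps, widths, gaps, domains, bins and score limits.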

Additional observations from a re-analysis of the deposited data

How the results depend on the processing

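None of the 13 alternatives to the 3 differences or ratios between X and autosomes turned their direction. These 13 did not include a count of regions found in both replicates, for which the density ratio was 0.648 and X the sparser. The other 22 alternatives concern 4 counts or shares, which have no direction and follow the distance or width that defines them. The order of the flanking and stand-alone shares turned under several of these. The number of regions, 512, was 295 with a width limit of 2 kb, and from 161 to 420 with 1 replicate left out. Leaving out a replicate here changed only which regions counted as supported. The combined regions, their scores and the domains still came from both replicates. The share in both replicates, 13.5%, was 2.37% with that width limit and 17.0% for scores at or above the median of the combined list. The flanking share, 24.4%, was 14.8% with gaps of at most 2 kb and 37.1% with 10 kb. It was 49.2% with domains of 3 kb or wider and 25.4% for scores at or above the median. With domains made by joining regions less than 1 kb apart it was 44.9%, and with domains of the replicate lists 12.7%. In these last settings a region inside such a domain also counted as flanking. Left-out replicates gave from 24.8% to 26.1%. The share standing alone, 36.3%, was 50.8% within 5 kb, 20.3% within 20 kb, 5.08% when neighbours of any width counted, 34.3% for scores at or above the median and from 35.40% to 35.5% with a replicate left out. The score difference of 0.079 ranged from 0.053 to 0.083 with a replicate left out. The density ratio of 1.30 was 1.94 outside regions of 3 kb or wider, 1.25 with 50% overlap, 2.72 for scores at or above the median, which X regions reach more often, and from 1.13 to 1.18 with a replicate left out. The difference in the share found in both replicates, with alternatives chosen after seeing the data, ranged from -17.7 to -10.9 points. The cause of these shifts was not tested beyond what each setting adds or removes. No paired analysis was possible because the inputs that share the replicate numbers carry no measured regions. Depth is unknown, so an uncalled place says nothing about absence of H4K16ac.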
